A study of Mus musculus with 6 samples.

Results

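The genes described here are 10 markers of hepatic stellate cells and of the myofibroblasts that these cells can become, namely *Pdgfra*, *Pdgfrb*, *Dcn*, *Lum*, *Lrat*, *Reln*, *Hand2*, *Des*, *Acta2* and *Tagln*. They were chosen by gene symbol, and each has 1 row among the 54532 genes of the deposited table. All 10 passed the filter on low counts that left 15449 genes for testing. RNA-Seq of whole liver compared 3 mice with an induced deletion in *Spns1*, which encodes a lysosomal transporter of lysolipids, with 3 control mice. The g*Spns1*-cKO mice (labelled SPNS1 KO) were *Spns1* fl/fl mice that carried Rosa26Cre-ERT2, a tamoxifen-inducible Cre expressed in the whole body, so that stellate cells were targeted together with hepatocytes and all other cells. They received 50 mg/kg tamoxifen on postnatal days 11, 13 and 15, which deletes exon 3. The control mice were *Spns1* fl/fl littermates without Cre according to the methods, whereas the labels call them wild type. The age at collection of these livers and whether the controls received tamoxifen are not given in the sources used here.

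Hepatic stellate cells lie between hepatocytes and the sinusoidal endothelium. In the quiescent state, they store vitamin A as retinyl esters, which LRAT makes, and they express desmin, reelin and the transcription factor HAND2. After liver injury, PDGF acts through its receptors as a mitogen for these cells, which can turn into contractile, matrix-secreting myofibroblasts that express α-smooth muscle actin (*Acta2*) and transgelin (*Tagln*). Portal fibroblasts and vascular smooth muscle cells share several of these genes, so no gene of the 10 reads out stellate cells alone.

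The 6 libraries held between 30350002 and 35295611 counts. Their TMM factors, which correct library size for composition, were between 0.834 and 0.873 in controls and 1.16 to 1.18 after *Spns1* deletion. *Spns1* itself had 1008, 1562 and 875 counts in the controls, compared with 642, 1175 and 698 after deletion, and fell by 0.87 on the log2 scale (standard error, SE, 0.25, adjusted p = 0.0300, quasi-likelihood test of edgeR, Benjamini-Hochberg adjusted over all genes). These counts cover the whole gene, including exons outside the deletion. All 6 livers expressed the Y-linked gene *Ddx3y*, at 56.2 to 73.1 CPM (read counts normalised for library size and TMM factor), and *Xist* had at most 5 counts in any library. The labels do not say that the livers came from separate litters or days, so the p-values measure the spread between these mice.

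Most of the stellate genes were more abundant in g*Spns1*-cKO livers, with log2 fold changes between 0.34 and 1.89. At an adjusted p under 0.05 in edgeR's test, 7 of the 10 genes rose and 0 fell, and the 3 that did not pass were *Hand2*, *Acta2* and *Tagln*. Among all genes tested, 21.3% rose and 20.5% fell by the same call, 41.8% together. These shares are the comparison for each list of genes counted below under the same call. The median log2 fold change of the 10 genes was 1.18, against 0.014 for all genes tested. The same 7 genes were higher in each g*Spns1*-cKO liver than in each control liver, which held for 27.1% of all genes tested. In bulk tissue, more cells of a type and more RNA per cell cannot be told apart. With scaling by library size only, the median over all genes was 0.46 on the log2 scale, with 47.2% of genes higher and 6.28% lower. With upper-quartile scaling it was 0.14, with 26.6% higher and 14.5% lower. Relative to that median, the log2 fold changes of the 10 genes were between 0.32 for *Tagln* and 1.88 for *Pdgfra* under library size only. A change of scaling moves all genes by nearly the same amount. These values therefore had to stay close to those with TMM and are not a separate check.

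**Figure D1:**
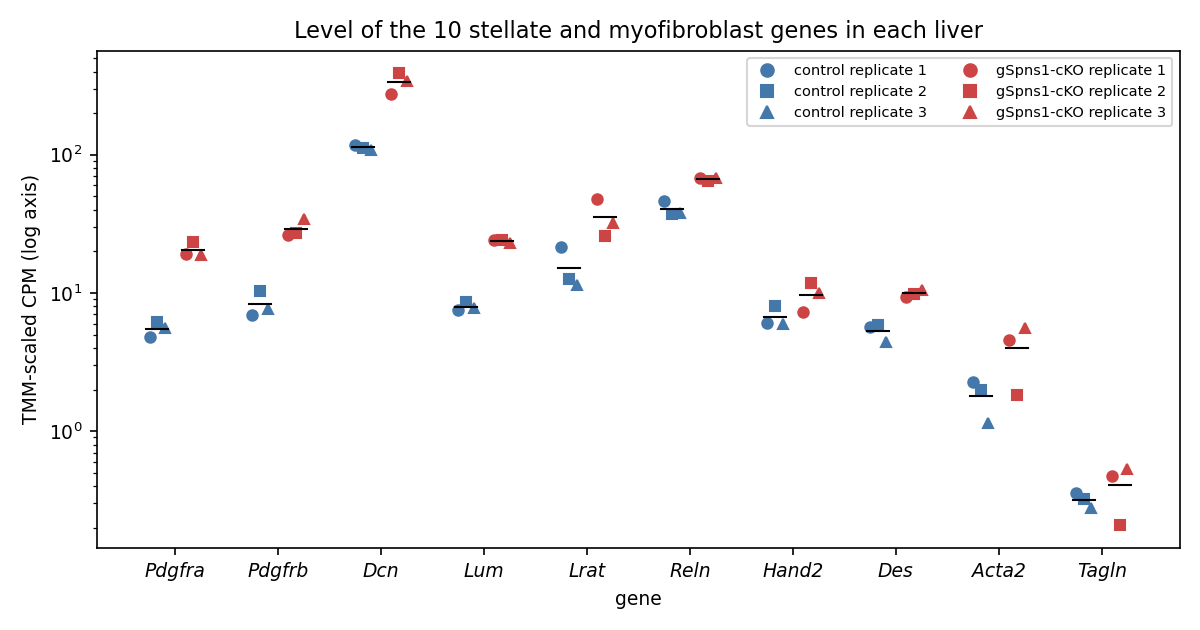
TMM-scaled CPM of each gene in each of the 6 livers, on a log axis, with a black line at the mean of the 3 livers of a group. *Dcn* had the highest CPM of the 10 genes in both groups, and the g*Spns1*-cKO livers were separate from the controls in 7 genes, whereas *Hand2*, *Acta2* and *Tagln* overlapped.

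Both PDGF receptor genes rose, and their log2 fold changes were the largest of the 10 genes. *Pdgfra* (ENSMUSG00000029231, GRCm38 chromosome 5, 75152292 to 75198215, plus strand), which encodes the receptor chain that binds all of PDGF-A, PDGF-B and PDGF-C, had 136, 189 and 141 counts in the 3 control mice versus 692, 897 and 745 in the g*Spns1*-cKO mice. After scaling, these were 4.84, 6.14 and 5.57 CPM against 19.2, 23.4 and 18.9, with a wide gap between the groups. The fold was 3.72 (log2 fold change 1.89, SE 0.15, adjusted p = 1.5e-05 from edgeR's test). *Pdgfrb* (ENSMUSG00000024620, chromosome 18, 61045150 to 61085061, plus strand), the receptor chain used as a marker of stellate cells and pericytes, had 196, 316 and 193 counts in the controls, compared with 938, 1046 and 1350 in g*Spns1*-cKO livers. It rose from 8.29 ± 1.74 to 29.2 ± 4.47 CPM (SD, n = 3), a fold of 3.52 (log2 fold change 1.82, SE 0.17, adjusted p = 4.51e-05 from edgeR's test). The ratio of *Pdgfra* to *Pdgfrb* counts within a library, which needs no scaling, was 0.694, 0.598 and 0.731 in controls against 0.738, 0.858 and 0.552 in g*Spns1*-cKO livers. The ratios of the groups overlapped (two-sided exact permutation test, p = 0.8, where 3 mice per group allow no p below 0.1).

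The genes of the PDGF ligands were also examined, and 3 of 4 rose. *Pdgfc* had 51, 55 and 35 counts in the 3 control mice versus 328, 233 and 263 in the g*Spns1*-cKO mice, and *Pdgfd* had 41, 27 and 11 against 151, 194 and 130. Their log2 fold changes were 2.13 (SE 0.23, adjusted p = 8.96e-05 from edgeR's test) and 2.17 (SE 0.37, adjusted p = 0.00133). *Pdgfb*, which encodes the ligand of both receptors, rose by 1.33 on the log2 scale (SE 0.32, adjusted p = 0.00733 from edgeR's test). *Pdgfa* did not pass, with 8.39, 6.88 and 6.80 CPM in the controls, compared with 20.7, 6.10 and 13.9 in g*Spns1*-cKO livers (adjusted p = 0.156). Its lowest value of all 6 libraries was in g*Spns1*-cKO replicate 2.

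The small leucine-rich proteoglycans decorin and lumican, which bind collagen fibrils, rose 2.96- and 2.99-fold. *Dcn* (ENSMUSG00000019929, chromosome 10, 97479609 to 97518143, plus strand) had 3319, 3447 and 2762 counts in controls against 9947, 14889 and 13357 in g*Spns1*-cKO livers. At 113 ± 4.55 and 335 ± 56.0 CPM (SD, n = 3), its log2 fold change was 1.57 (SE 0.14, adjusted p = 3.83e-05 from edgeR's test). *Dcn* alone held 55.4% ± 1.69 of the summed CPM of the 10 genes in controls and 62.3% ± 5.01 in g*Spns1*-cKO livers, so a sum over the genes mostly follows *Dcn*. *Lum* (ENSMUSG00000036446, chromosome 10, 97565128 to 97572703, plus strand) had 212, 264 and 197 counts in the 3 control mice versus 871, 932 and 902 in the g*Spns1*-cKO mice. Its spread between mice was small, at 7.97 ± 0.540 and 23.8 ± 0.755 CPM, and its log2 fold change was 1.58 (SE 0.12, adjusted p = 1.12e-05 from edgeR's test). The ratio of *Lum* to *Dcn* counts was between 0.0639 and 0.0766 in the controls, compared with between 0.0626 and 0.0876 in g*Spns1*-cKO livers (two-sided exact permutation test, p = 0.9).

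*Dcn* and *Lum* are neighbours, with 46985 bases between the end of *Dcn* and the start of *Lum*. The next genes on the same strand, *Kera* (chromosome 10, 97606879 to 97613692) and *Epyc* (97644068 to 97682454), encode keratocan and epiphycan, proteoglycans of the same family. Both had 0 counts in all 6 libraries, which allows at most 3 counts per library, or 0.0763 to 0.119 CPM, for counting error only. In a list of 11 other genes of the family, which does not hold the whole family, 8 could be tested, 3 rose and 2 fell, with a median log2 fold change of 0.55. *Bgn*, which encodes biglycan, rose from 97.4 ± 9.46 to 189 ± 12.8 CPM (SD, n = 3, log2 fold change 0.96, adjusted p = 2.03e-04 from edgeR's test). *Omd* and *Chad*, which encode osteomodulin and chondroadherin, fell by 1.31 and 1.15 on the log2 scale (adjusted p = 0.0334 and 0.0106), from means of 2.24 and 2.77 CPM.

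**Figure D2:**
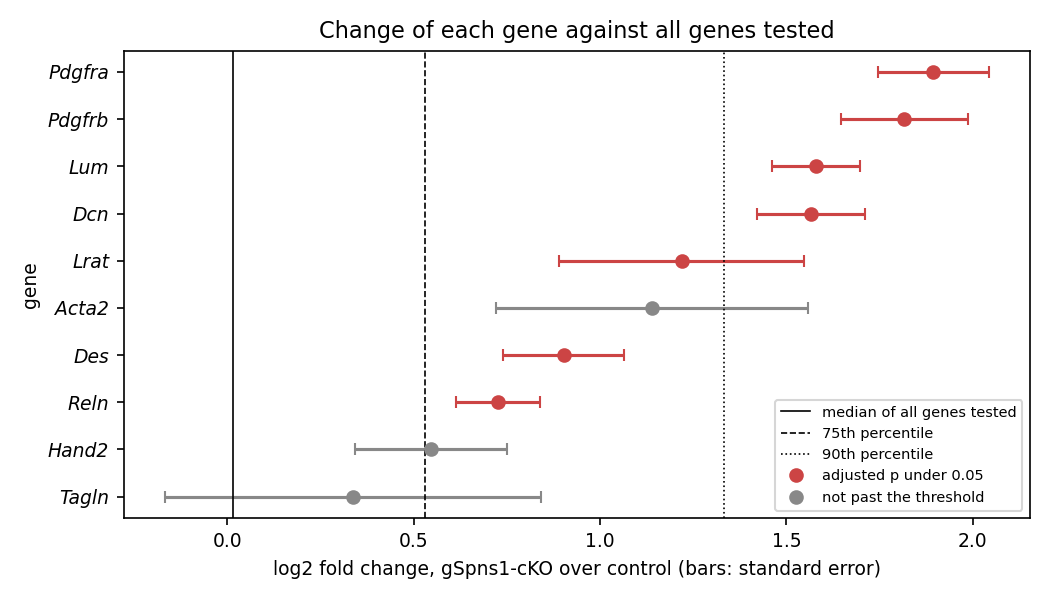
Log2 fold change of each gene in g*Spns1*-cKO over control livers with its SE, and vertical lines at the median, the 75th and the 90th percentile of all 15449 genes tested. *Pdgfra*, *Pdgfrb*, *Lum* and *Dcn* lie beyond the 90th percentile (1.33), and the bars of *Lrat*, *Acta2* and *Tagln* are the widest of the 10.

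*Lrat* (ENSMUSG00000028003, chromosome 3, 82892579 to 82903973, minus strand), whose product esterifies retinol for storage in stellate cells, had 600, 390 and 287 counts in controls against 1730, 989 and 1251 in g*Spns1*-cKO livers. At 21.3, 12.7 and 11.3 CPM against 48.1, 25.8 and 31.8, the groups did not overlap, but replicate 1 was well above the other livers in each group. *Lrat* rose 2.33-fold (log2 fold change 1.22, SE 0.33, adjusted p = 0.0278 from edgeR's test). The call was lost without control replicate 2 (adjusted p = 0.0911), control replicate 3 (0.0659) or g*Spns1*-cKO replicate 3 (0.0665). The log2 fold change stayed between 0.93 and 1.54 with any mouse left out. *Lrat* passed in 10 of 14 alternatives, with an adjusted p of 4.76e-05 from DESeq2 and 0.00779 from limma-voom. With the replicate number as a block in edgeR's test, its adjusted p was 3.0e-04. The retinoic acid hydroxylase genes *Cyp26a1* and *Cyp26b1*, picked after their values were seen, were also highest in replicate 1 of each group. *Cyp26b1* had 22.2, 2.66 and 1.62 CPM in the 3 control mice versus 44.6, 13.3 and 22.3 in the g*Spns1*-cKO mice, and *Cyp26a1* had 33.2, 21.3 and 7.55 against 58.8, 12.5 and 13.2. Neither passed the test (adjusted p = 0.353 and 0.744 from edgeR's test).

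In the list of 20 genes of retinoid storage and use, 4 rose, 7 fell and 9 did not pass, with a median log2 fold change of -0.0042. The share that rose was 20%, near the 21.3% of all genes tested, of which 20.5% fell. *Lpl*, the lipoprotein lipase gene, moved more than the other 19 genes of this list, from 13.4 ± 0.623 to 295 ± 67.5 CPM (log2 fold change 4.46, adjusted p = 2.84e-07 from edgeR's test). *Lpl* is also expressed by macrophages, whose 8 markers all rose in these livers, and the part of those cells in its change was not tested. *Aldh1a1*, a retinaldehyde dehydrogenase gene of hepatocytes, fell by 1.90 on the log2 scale (SE 0.20, adjusted p = 7.75e-05).

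*Reln* and *Hand2*, which mark stellate cell identity, had smaller log2 fold changes than the receptors and proteoglycans. *Reln* (ENSMUSG00000042453, chromosome 5, 21884454 to 22344702, minus strand), which encodes the secreted glycoprotein reelin, had 1303, 1150 and 955 counts in the controls, compared with 2428, 2487 and 2689 in g*Spns1*-cKO livers. It rose from 40.5 ± 5.09 to 66.9 ± 1.86 CPM (SD, n = 3), a fold of 1.65 (log2 fold change 0.72, SE 0.11, adjusted p = 7.31e-04 from edgeR's test). *Vldlr*, which encodes a reelin and lipoprotein receptor, rose from 24, 25 and 43 counts to 123, 605 and 352 (log2 fold change 3.08, SE 0.66, adjusted p = 0.0130), and the values of the 3 g*Spns1*-cKO livers were far apart. The other reelin receptor gene *Lrp8* and the adaptor gene *Dab1* had at most 18 counts in any library and could not be tested.

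*Hand2* (ENSMUSG00000038193, chromosome 8, 57320983 to 57324633, plus strand), a transcription factor gene of stellate cells, had 170, 246 and 151 counts in controls against 262, 455 and 396 in g*Spns1*-cKO livers. At 6.05, 7.99 and 5.97 CPM against 7.28, 11.9 and 10.1, the lowest g*Spns1*-cKO liver was below the highest control. The log2 fold change of 0.54 (SE 0.20) did not pass (adjusted p = 0.0528 from edgeR's test), and passed without g*Spns1*-cKO replicate 1 (adjusted p = 0.0103) or control replicate 2 (0.0417) and under library size only (0.00304). It passed in 7 of 14 alternatives, and the highest adjusted p was 0.193, without g*Spns1*-cKO replicate 2. *Hand2* overlaps *AV026068*, a gene on the opposite strand with between 91 and 493 counts, which had a log2 fold change of 1.27 (adjusted p = 0.00863). The strand setting of the counting is not given in the sources used here, so reads of this pair may not be fully separated. *Tcf21* and *Lhx2*, transcription factor genes that are also used as stellate markers, rose by 1.29 and 0.77 on the log2 scale (adjusted p = 3.57e-04 and 0.0244 from edgeR's test).

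Because the ratio of 2 genes within a library is free of scaling, 8 ratios between the genes were compared, chosen after the fold changes were known. The ratio of *Pdgfrb* to *Hand2* counts was 1.15, 1.28 and 1.28 in the 3 control mice versus 3.58, 2.30 and 3.41 in the g*Spns1*-cKO mice, 2.46-fold higher. That of *Pdgfra* to *Hand2* was 2.57-fold higher, and that of *Dcn* to *Reln* was 1.77-fold higher, from between 2.55 and 3.00 to between 4.10 and 5.99. In each of these 3 ratios the groups did not overlap (exact permutation test, two-sided, p = 0.1, which is the lowest value possible with 3 mice per group, and 0.267 after Benjamini-Hochberg adjustment over the 8 ratios). The ratios of *Lrat* to *Reln*, *Des* to *Reln* and *Acta2* to *Des* overlapped between the groups, with p = 0.2, 0.4 and 0.8 in the exact permutation test. Since no ratio could pass 0.05 in this design, these p-values do not separate ratios that shifted from ratios that did not.

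Of the cytoskeletal genes of contractile cells, *Des* rose, and *Acta2* and *Tagln* did not pass the test. *Des* (ENSMUSG00000026208, chromosome 1, 75360329 to 75368579, plus strand), which encodes the intermediate filament protein desmin, had 160, 179 and 111 counts in the controls, compared with 337, 376 and 416 in g*Spns1*-cKO livers. It rose from 5.30 ± 0.791 to 9.92 ± 0.616 CPM (SD, n = 3), a fold of 1.87 (log2 fold change 0.90, SE 0.16, adjusted p = 0.00166 from edgeR's test). *Acta2* (ENSMUSG00000035783, chromosome 19, 34241090 to 34255336, minus strand), the α-smooth muscle actin gene that defines myofibroblasts, had only 64, 61 and 29 counts in controls against 165, 70 and 218 in g*Spns1*-cKO livers. At 2.28, 1.98 and 1.15 CPM against 4.59, 1.82 and 5.55, replicates 1 and 3 of the g*Spns1*-cKO group were above all controls and replicate 2 lay within them. The log2 fold change of 1.14 (SE 0.42) missed the threshold (adjusted p = 0.0550 from edgeR's test). It was 1.48 without g*Spns1*-cKO replicate 2 (adjusted p = 0.00355), 0.89 without control replicate 3 (0.165) and 0.82 without g*Spns1*-cKO replicate 3 (0.182). DESeq2 gave an adjusted p of 0.0200 and limma-voom one of 0.123, and *Acta2* passed in 5 of 14 alternatives, with log2 fold changes between 0.82 and 1.57.

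*Tagln* (ENSMUSG00000032085, chromosome 9, 45929619 to 45936058, minus strand), which encodes the actin-binding protein transgelin, had 10, 10 and 7 counts in the 3 control mice versus 17, 8 and 21 in the g*Spns1*-cKO mice. The floor of 3 counts corresponds to 0.0763 to 0.119 CPM, and *Tagln* was between 0.277 and 0.356 CPM in the controls, compared with 0.209 to 0.534 in g*Spns1*-cKO livers. Both groups overlapped, and the difference did not pass (log2 fold change 0.34, SE 0.50, adjusted p = 0.622 from edgeR's test). The 3' end of *Pcsk7*, with between 861 and 1000 counts per library, overlaps *Tagln* on the opposite strand, so that the few *Tagln* reads are uncertain. As in *Acta2*, g*Spns1*-cKO replicate 2 was the lowest of the 3 g*Spns1*-cKO livers.

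The sequence before the start of *Acta2* was examined because *Acta2* is the gene by which myofibroblasts are recognised. It was taken from the reference genome, so it holds no information on differences between the livers. Serum response factor binds CArG boxes in genes of the contractile apparatus. In the 250 bases before the RefSeq start (GRCm38.p6), 2 places differ from the CArG consensus by 1 letter, and they begin 84 and 34 bases before that start. They are shown with 10 bases on each side and the place itself in capitals, at chr19:34255438-34255467 and chr19:34255388-34255417, both on the minus strand.
Acta2 site 1: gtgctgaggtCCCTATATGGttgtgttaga
Acta2 site 2: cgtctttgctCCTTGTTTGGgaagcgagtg

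The annotations differ here, since GENCODE M21 places the start of *Acta2* further upstream and counts 217 of these 250 bases, both places included, as its 5' untranslated region. No exact CArG box was present in the window, and 1.47% of the 32851 promoter windows of the same length hold one. Places with at most 1 letter off were present in 18.6% of all windows, and 2.96% of windows hold at least 2. The consensus reads the same on both strands, so a single scan covered both. Of the 10 genes, 6 had a promoter in the RefSeq table, and *Lrat* was the only other gene among these 6 with such a place. *Srf*, the serum response factor gene, had 331, 470 and 289 counts in the controls and 442, 498 and 423 after *Spns1* deletion (log2 fold change -0.10, adjusted p = 0.640 from edgeR's test). *Myocd*, which encodes its smooth muscle coactivator, had 0 counts in all 6 libraries. The myocardin-related gene *Mkl1* (*Mrtfa*) rose from 183, 242 and 206 counts to 434, 437 and 474 (log2 fold change 0.66, adjusted p = 0.00428 from edgeR's test). Its relative *Mkl2* (*Mrtfb*) did not pass (log2 fold change 0.19, adjusted p = 0.195). The part of serum response factor and its coactivators in the *Acta2* values was not tested.

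In the list of 15 contractile genes, 11 could be tested, 6 rose, 1 fell and 4 did not pass, with a median log2 fold change of 0.67. *Itga8*, the α8 integrin gene expressed by stellate and smooth muscle cells, rose from 89, 134 and 59 counts to 747, 549 and 624 (log2 fold change 2.36, SE 0.23, adjusted p = 6.88e-05 from edgeR's test). *Myh11*, the smooth muscle myosin heavy chain gene, rose from 40, 35 and 34 counts to 134, 98 and 161 (log2 fold change 1.41, adjusted p = 0.00222). *Tpm2*, a tropomyosin gene, fell by 1.93 on the log2 scale (SE 0.30, adjusted p = 0.00107). *Cnn1* and *Actg2*, which encode calponin and γ-smooth muscle actin, had at most 10 and 2 counts in any library.

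A pattern noticed after the values were seen concerned g*Spns1*-cKO replicate 2, which was the lowest of its group in 9 of the 11 contractile genes tested and in 14 of the 23 activated stellate genes tested (60.9%), against 34.7% of all genes tested. In the quiescent list, it was the lowest in 5 of 20 genes. For example, *Myl9*, a myosin light chain gene, had 111, 57 and 176 counts in the g*Spns1*-cKO livers, and *Col1a1*, *Col3a1* and *Timp1* had 448, 982 and 14 counts in replicate 2 against at least 763, 1852 and 59 in the others. The same liver had the highest *Pdgfra* and *Dcn* values of all 6, at 23.4 and 388 CPM. Within the g*Spns1*-cKO group, *Acta2*, *Myl9* and the fibrillar collagens thus ordered the 3 livers differently from *Pdgfra* and *Dcn*.

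**Figure D3:**
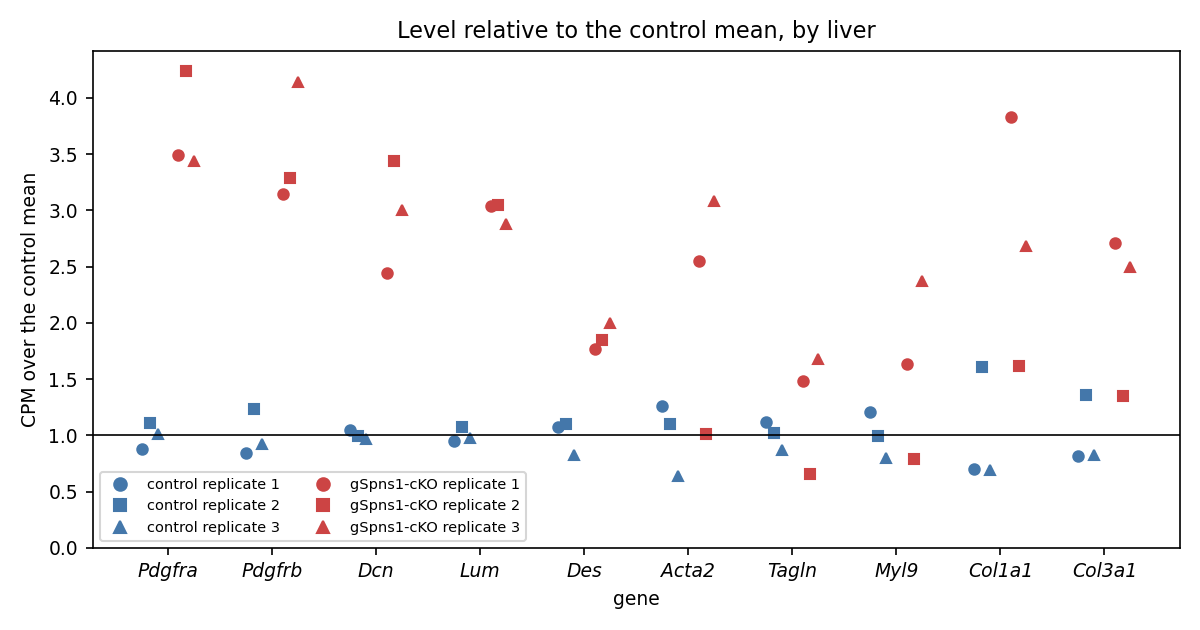
CPM of *Pdgfra*, *Pdgfrb*, *Dcn*, *Lum* and *Des* and of 5 contractile, myosin or collagen genes in each liver, divided by the mean of the 3 control livers. In *Pdgfra*, *Pdgfrb*, *Dcn* and *Lum* all 3 g*Spns1*-cKO livers lie at or above 2.45, whereas replicate 2 (square) lies at the control mean in *Acta2* and at 0.654 in *Tagln* and 0.788 in *Myl9*.

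Other genes of quiescent stellate cells were examined in a list of 20, of which 13 rose, 1 fell and 6 did not pass, with a median log2 fold change of 0.69. *Ngfr*, which encodes the low-affinity neurotrophin receptor, rose from 72, 91 and 74 counts to 476, 327 and 437 (log2 fold change 1.96, SE 0.20, adjusted p = 6.19e-05 from edgeR's test). *Cygb*, which encodes the stellate globin cytoglobin, rose from 13.7 ± 1.74 to 46.1 ± 3.13 CPM (SD, n = 3, log2 fold change 1.75, adjusted p = 8.24e-06). *Hgf*, the hepatocyte growth factor gene, had 78, 67 and 77 counts against 347, 323 and 332 (log2 fold change 1.73, adjusted p = 8.94e-05). The gene that fell was *Angptl6*, by 0.45 on the log2 scale (adjusted p = 0.0404), and *Colec10*, *Cxcl12* and *Steap4* did not pass, with log2 fold changes of 0.0083, -0.30 and -0.25. The summed level of this list was between 828 and 1009 CPM in controls against between 1032 and 1153 in g*Spns1*-cKO livers. A large part of this sum is *Cxcl12* and *Steap4*, with means of 395 and 176 CPM in controls against 321 and 148 in g*Spns1*-cKO livers.

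In the list of 26 genes of activated stellate cells and myofibroblasts, 23 could be tested, of which 19 rose, 0 fell and 4 did not pass, with a median log2 fold change of 1.35. *Mmp2*, the gelatinase A gene, rose from 63, 112 and 60 counts to 626, 679 and 696 (log2 fold change 2.67, SE 0.19, adjusted p = 8.75e-06 from edgeR's test). *Spp1*, the osteopontin gene, rose by 2.13 on the log2 scale (adjusted p = 2.09e-04), and it is also a marker of cholangiocytes, of whose 7 markers 6 rose. *Col5a2* rose from 1.93 ± 0.197 to 6.68 ± 0.828 CPM (log2 fold change 1.79, adjusted p = 1.09e-04). *Col1a2* and *Col3a1*, genes of the fibrillar collagens I and III, rose by 1.35 and 1.12 (adjusted p = 0.0244 and 0.0386 from edgeR's test). *Col1a1*, with 142, 358 and 127 counts against 996, 448 and 763, did not pass (log2 fold change 1.43, adjusted p = 0.0628). In CPM, the groups did not overlap in *Col1a1* and overlapped in *Col3a1*. *Lox*, *Cthrc1* and *Fap*, further myofibroblast genes, had too few counts to be tested. *Lox* had 2, 4 and 0 counts in the 3 control mice versus 51, 10 and 29 in the g*Spns1*-cKO mice, and *Fap* had at most 9 counts in any library.

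**Figure D4:**
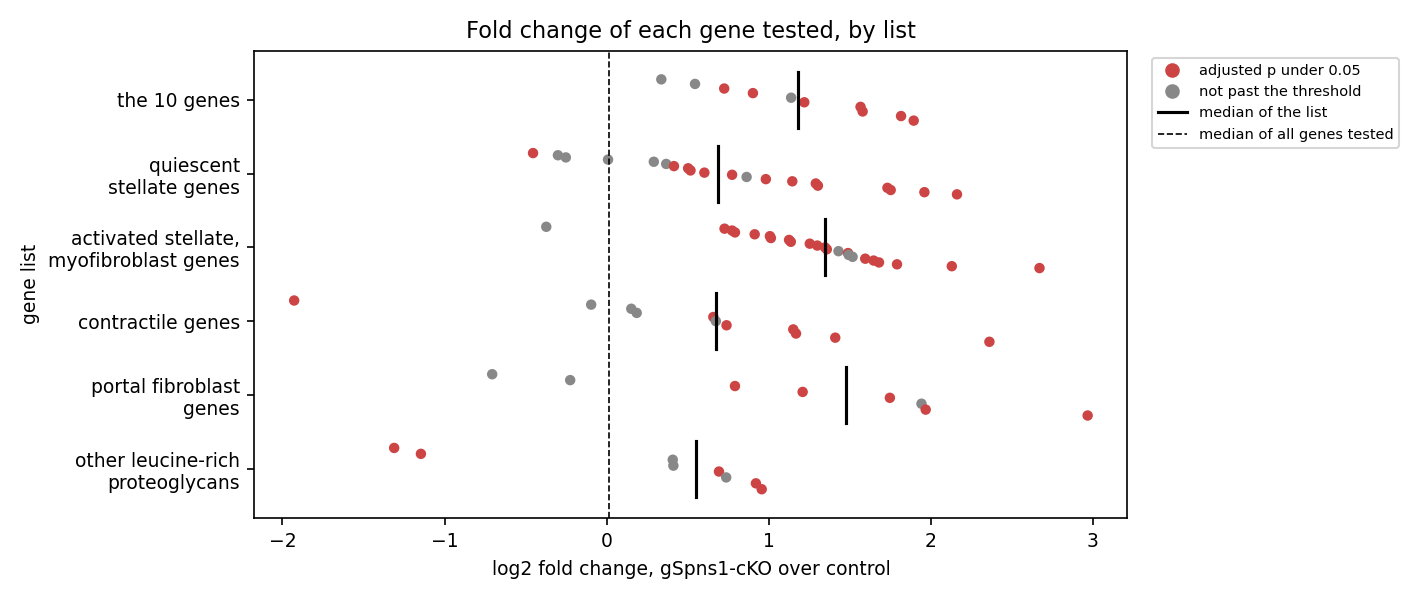
Log2 fold change in g*Spns1*-cKO over control livers of every gene tested, by list, with the median of each list (black bar) and of all genes tested (dashed line). The median was 1.18 for the 10 genes, 0.69 for the quiescent list, 1.35 for the activated list and 0.67 for the contractile list, and the lists share some genes.

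Per kilobase of deposited gene length, the level of *Dcn* was 19.4 ± 0.780 CPM per kilobase in control livers (SD, n = 3) against 57.4 ± 9.58 in g*Spns1*-cKO livers, far above the other 9 genes. In control livers *Lum*, *Hand2* and *Lrat* followed at 3.25 ± 0.221, 2.84 ± 0.487 and 2.83 ± 1.01 and did not differ beyond their spread. *Reln*, *Pdgfrb* and *Des* came next at 1.71 ± 0.214, 1.51 ± 0.318 and 1.41 ± 0.211, again within their spread, and were followed by *Acta2* at 1.01 ± 0.329, whose spread reached that of *Des*. *Pdgfra* was at 0.550 ± 0.0651 and *Tagln* at 0.161 ± 0.0200 CPM per kilobase. In g*Spns1*-cKO livers, *Lum* followed *Dcn* at 9.73 ± 0.308, and *Lrat* at 6.58 ± 2.16, *Pdgfrb* at 5.33 ± 0.816 and *Hand2* at 4.14 ± 0.981 came next, each within the spread of its neighbour. *Reln* at 2.82 ± 0.0785, *Des* at 2.64 ± 0.164, *Acta2* at 2.24 ± 1.08 and *Pdgfra* at 2.05 ± 0.247 lay close together, above *Tagln* at 0.204 ± 0.0870. The deposited length counts all annotated exons of a gene, which for *Reln* (23738 bases) lowers the value where only some of them are transcribed.

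Markers of other mesenchymal cells were examined in 3 lists. Of 11 portal fibroblast genes, 8 could be tested, 5 rose, 0 fell and 3 did not pass, with 16.4 to 20.3 CPM in sum in the controls, compared with 28.1 to 37.6 in g*Spns1*-cKO livers. *Eln*, the elastin gene, rose from 26, 47 and 13 counts to 294, 285 and 315 (log2 fold change 2.97, SE 0.31, adjusted p = 7.5e-05 from edgeR's test), *Cd34* by 1.97 (adjusted p = 9.94e-05) and *Entpd2* by 1.75 (adjusted p = 4.86e-04). *Fbln2*, a fibulin gene, rose by 1.21 (adjusted p = 0.0157). The 3 that did not pass were *Col15a1*, *Mfap4* and *Slit2*, with log2 fold changes of -0.71, -0.23 and 1.94 (adjusted p = 0.0693, 0.762 and 0.0589 from edgeR's test). *Col15a1*, a collagen gene, had 9.94 ± 1.48 CPM in controls against 6.10 ± 2.35 after *Spns1* deletion (SD, n = 3), and its groups did not overlap. The universal fibroblast markers *Pi16* and *Clec3b* were below 0.5 CPM in each library. Of 6 mesothelial genes, 2 rose and 4 did not pass, with sums of 5.89 to 19.9 and 21.0 to 27.4 CPM. Those that did not pass were the defining *Msln*, *Upk1b* and *Upk3b* (adjusted p = 0.225, 0.159 and 0.615 from edgeR's test) and *Lrrn4* (0.183). Of the 6 genes, *Wt1*, a transcription factor gene of mesothelium, changed most, with 21, 30 and 2 counts against 199, 217 and 276 (log2 fold change 3.29, SE 0.52, adjusted p = 0.00173 from edgeR's test). The control libraries alone would not have carried *Wt1* past the filter on low counts. The 5 vascular smooth muscle markers summed to 2.31 to 2.61 CPM in controls against 4.27 to 6.59 in g*Spns1*-cKO livers, with *Cnn1* and *Actg2* near 0. *Myh11* and *Synpo2* were the only 2 that could be tested, and both rose. The 3 lists share no gene with the 10 stellate genes, and the part of these cells in the change of the 10 genes was not tested.

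Outside the mesenchyme, all 8 macrophage markers rose, among them *Adgre1* by 2.14, *Cd68* by 2.14 and *Csf1r* by 1.63 on the log2 scale, with sums of 173 to 277 CPM in the 3 control mice versus 643 to 947 in the g*Spns1*-cKO mice, and 6 of 7 cholangiocyte markers rose, among them *Krt7* by 2.03, *Krt19* by 2.29 and *Epcam* by 3.11, with sums of 59.4 to 77.8 and 186 to 300. Of 8 endothelial markers, 6 rose, including *Pecam1* by 0.69, *Cdh5* by 1.06 and *Stab2* by 1.19 on the log2 scale, and their sum went from between 182 and 199 CPM to between 278 and 319. Of 8 lymphocyte markers, *Nkg7* rose, by 1.76 (adjusted p = 0.0137 from edgeR's test), and *Cd4* fell, by 1.26. The control libraries alone, with 17, 20 and 3 counts, would not have carried *Nkg7* past the filter on low counts. The other 6 did not pass, including *Cd3e* and *Cd3d*, with log2 fold changes of -0.0010 and -0.23, and *Cd8a*, with 1.95. The sums of the 8 markers were 4.35 to 5.66 CPM and 6.03 to 7.01. Of the 7 hepatocyte markers examined, 4 fell and 0 rose. The log2 fold changes were -0.73 for *Alb*, -0.76 for *Apoa1* and -0.47 for *Ttr*, which did not pass (adjusted p = 0.0545 from edgeR's test). *Cps1* went the other way, with a log2 fold change of 0.36 that did not pass. It was higher in each g*Spns1*-cKO liver than in each control liver, whereas 5 of the 7 markers were lower in each. The sum of the 7 markers was between 104000 and 117500 CPM in the controls, compared with 61410 to 73920 after *Spns1* deletion. The summed level of the 10 stellate genes was between 191 and 219.5 CPM in controls against 483 to 577 in g*Spns1*-cKO livers, 2.61-fold higher. The corresponding values were 3.35-fold for macrophages, 3.60-fold for cholangiocytes, 1.56-fold for endothelial cells and 0.630 times for hepatocytes. The cholangiocyte sum mostly follows *Spp1*, with means of 44.6 CPM in controls and 195 in g*Spns1*-cKO livers. *Spp1* is also in the activated stellate list. *Cftr*, a cholangiocyte marker that rose, had 5, 1 and 2 counts in controls against 17, 26 and 26 in g*Spns1*-cKO livers. It passed the filter on low counts through the g*Spns1*-cKO livers alone. The hepatocyte sum mostly follows *Alb*, with means of 69350 and 41890 CPM. The part of a different cell composition in the changes of the 10 genes was not tested.

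**Figure D5:**
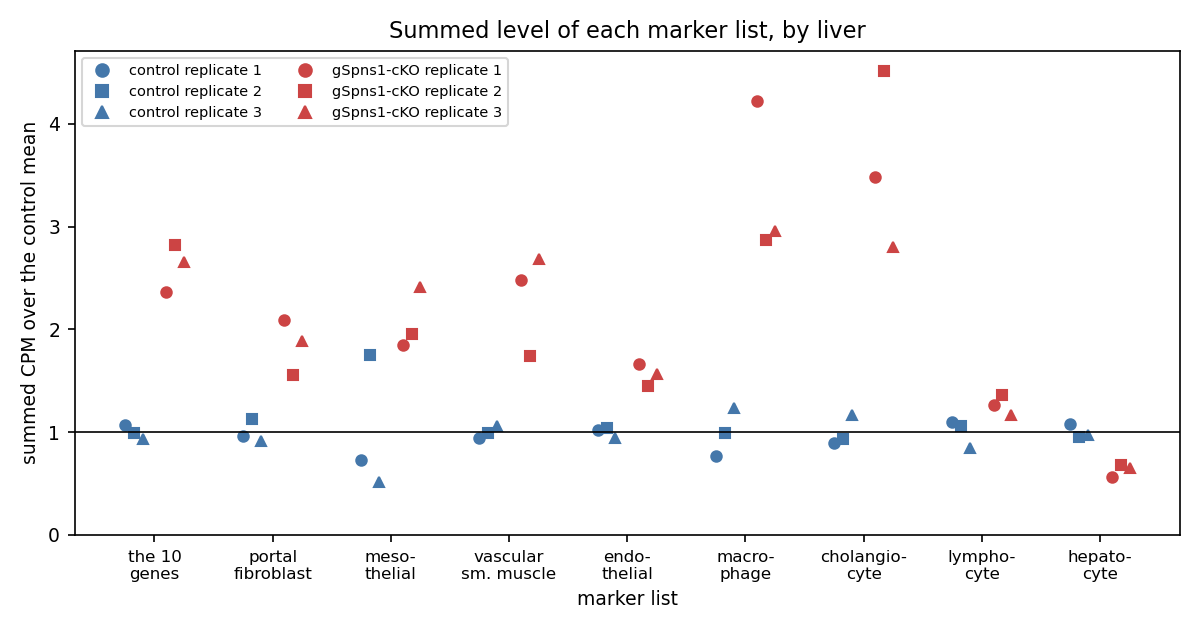
Summed CPM of each marker list in each liver, divided by the mean of the 3 control livers. The sum of the 10 stellate genes and the sums for macrophages and cholangiocytes lie well above the control livers in all 3 g*Spns1*-cKO livers, and the hepatocyte sum lies below them.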

How the data were processed

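Poly(A)-selected RNA of 6 livers was sequenced by a commercial service, 1 library per mouse. The authors deposited raw counts per gene without pooling. The submitters' processing notes name fastp, HISAT2 2.0.5, featureCounts 1.5.0-p3 and mm10 (GRCm38), and the strand setting and annotation release are not given in the sources used here. Of the 10 genes, 9 have the same coordinates in GENCODE M21, and *Acta2* ends at 34255590 there. Deposited gene lengths were used for levels per kilobase. The deposited FPKM values and the 5 columns of the authors' own comparison, with fold changes and p-values, were not used.

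Differential expression was tested with edgeR 4.0.16 under R 4.3.3 (filterByExpr by group, TMM, robust glmQLFit, glmQLFTest, no covariate) and Benjamini-Hochberg adjustment over all 15449 genes tested, with a threshold of 0.05. CPM refer to library sizes multiplied by the TMM factor. The standard error (SE) is the log2 fold change over the square root of F. All permutation tests were exact, two-sided and limited to p = 0.1 or above by the group size of 3. Floors of 3 counts cover counting error only. Libraries of a group differed by more than sampling noise (chi-square per gene between 38.8 and 114). The fit was tested on simulated data. Alternatives used DESeq2 1.42.0 and limma 3.58.1.

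The genes and lists were chosen with earlier results of these data known. Named genes are the 10 members, in each other list the 3 genes with the largest change among those past the threshold with a mean of at least 1 CPM, the first 3 genes of each cell type marker list, the PDGF ligands, the reelin receptors and *Spns1*. Further genes were picked after their values were seen. Some genes that this rule or these lists would name are not reported here.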

Additional observations from a re-analysis of the deposited data

How the results depend on the processing

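*Pdgfra*, *Pdgfrb*, *Lum*, *Dcn*, *Reln* and *Des* kept their direction and passed in all 14 alternatives, and no log2 fold change of the 10 genes changed sign. The number of the 10 genes called higher was 7, and 8 with DESeq2, 9 with library size only, upper-quartile scaling or a filter of at least 1 count in any library, 8 with at least 10 counts in every library (9 genes tested), 7 with limma-voom and 6 at an adjusted p under 0.01. With each mouse left out in turn it was 6 to 8, with 0 called lower. Among all genes tested, 47.2% were called higher under library size only and 26.6% under upper-quartile scaling, against 21.3% with TMM. In all, 3318 of 19365 genes were called higher with DESeq2 and 3706 of 26590 with the filter of at least 1 count. With a mouse left out, between 2365 and 3213 genes were called higher. *Acta2* passed in 5 and *Hand2* in 7 of the 14 alternatives, *Lrat* in 10 and *Tagln* in 0 of 13. The cause was not tested.

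For the quiescent list, the number called lower went from 1 to 0 under library size only, upper-quartile scaling, the filter of at least 10 counts in every library and an adjusted p under 0.01, and was 0 to 1 with each mouse left out. Between 11 and 13 quiescent and between 14 and 20 activated genes were then called higher.

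Over all genes tested, the replicate numbers shared by the groups did not pair the livers, with correlations of same-numbered deviations of 0.037, 0.033 and -0.028. With the replicate block, 8 of the 10 genes were called higher (*Hand2* passed, adjusted p = 0.0324 from edgeR's test), the number called lower was 0 in the quiescent list and 1 in the activated list, and 3084 genes rose and 3016 fell in all, against 3286 and 3166. Genes with 0 counts in a library, such as *Kera* and *Epyc*, may hold up to 3 counts there.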
